A study of Mus musculus with 6 samples.

Results

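The genes described here are 10 regulators and effectors of early lymphoid development: the Ikaros family genes Ikzf1, Ikzf2 and Ikzf3, the lymphoid transcription factor and chromatin genes Tcf3, Ebf1, Pax5 and Satb1, and the antigen receptor recombination genes Dntt, Rag1 and Rag2. They were chosen by symbol, through the Entrez Gene number of each probe set, and all 10 were found among the 23185 genes with 1 symbol, with 1 probe set each. The arrays compare hematopoietic stem cells (HSCs) of Merit40-/- mice with those of wild-type (WT) mice, on 3 Affymetrix Mouse Gene 2.0 ST arrays per genotype. The cells were CD150+CD48- cells of the LSK (lineage-negative, Sca-1+, c-Kit+) gate, sorted in 2 rounds from the bone marrow of young adults and used without culture. Merit40, the product of Babam1, is a subunit of the BRISC and BRCA1-A deubiquitinase complexes. The labels call the arrays biological replicates but give neither the number of mice behind an array nor the kind of Merit40 allele, so p-values measure the spread between these arrays.

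Lymphoid cells arise from HSCs through multipotent progenitors in which lymphoid genes are primed before commitment. Ikaros zinc-finger proteins and the E protein E2A, encoded by Tcf3, act from the earliest steps. Ebf1 and Pax5 then set the B cell programme in committed progenitors, and the Rag1 and Rag2 recombinase cuts the antigen receptor loci while Dntt adds nucleotides at the joints. Levels below are log2 values made by RMA (robust multi-array average), and differences are Merit40-/- minus WT on that log2 scale. Probe sets differ in how brightly they read, so levels of different genes are not compared as amounts of transcript. A level is placed only against marks of low signal: the median of all genes in WT (4.93) and the 1364 chemosensory receptor genes, which HSCs are not known to use. In WT, 95% of these receptor genes lay below 4.58, and this value is the low-signal mark used here.

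Babam1 checked the genotype labels. It read 4.29, 3.87 and 4.01 on the Merit40-/- arrays, against 7.91, 8.04 and 8.05 on the WT arrays. The gene fell by 3.94 (SE 0.14) in limma's moderated test, with an adjusted p of 5.04e-05. Permuting the 6 values exactly gave a 2-sided p = 0.1, the lowest that 3 arrays against 3 allow. Babam1 lies on chromosome 8, and 0 of the 10 lymphoid genes lie there. HSC markers were well above the low-signal mark on all arrays, at list means of 8.44 to 8.67 in Merit40-/- and 8.28 to 8.55 in WT over 8 measured genes. Single arrays stood apart in genes of other cells. Merit40-/- replicate 1 exceeded each of the other 5 arrays by at least 2 log2 units in 8 of 10 skeletal muscle markers, and Merit40-/- replicate 3 did so in 2 of 8 osteoclast markers, Ctsk and Acp5.

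In WT HSCs 5 of the 10 genes, counting Pax5, lay above the low-signal mark, beside 12654 of all 23185 genes. Ikzf1, Ikzf2 and Tcf3 stood at least 3.18 above the median of all genes, Satb1 stood 0.52 above it, and Pax5 lay at the mark. Ikzf3, Ebf1, Dntt, Rag1 and Rag2 read within the range of the chemosensory receptors. None of the 10 passed the threshold between Merit40-/- and WT (adjusted p under 0.05 over all 23185 genes, in limma), 0 in each direction, and the smallest adjusted p among them was 0.999. At that threshold 0.00431% of all genes were called, which is Babam1 alone. At an unadjusted p under 0.05 there was 1 of the 10, Ikzf3, against 979 of all genes (4.22%). The median difference of the 10 was 0.05, with 6 above 0 and 4 below, beside a median of 0.0052 over all genes.

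**Figure D1:**
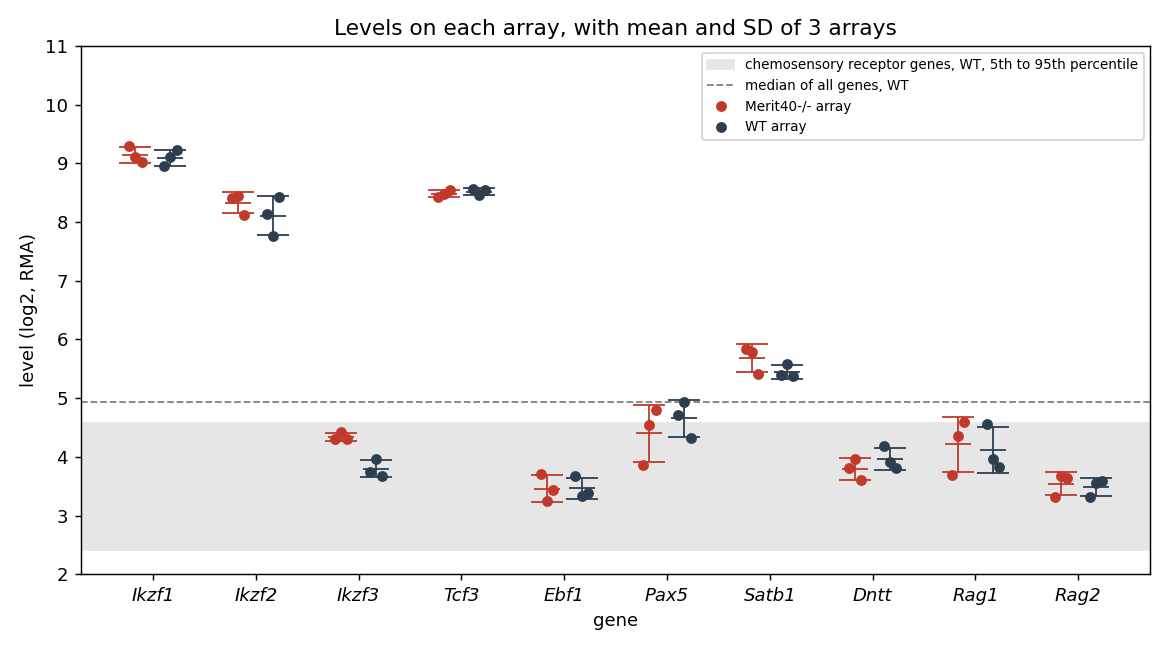
Level of each gene (log2, RMA) on every array, Merit40-/- in red left of WT in dark blue, with the mean and SD of 3 arrays. Ikzf1, Ikzf2 and Tcf3 lie far above the dashed median of all genes (4.93), Satb1 lies just above it, and the means of 5 genes (Ikzf3, Ebf1, Dntt, Rag1 and Rag2) lie inside the grey range of chemosensory receptor genes in both genotypes.

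Ikzf1 encodes Ikaros, the founding member of the family, which lymphoid development requires. It read 9.30, 9.11 and 9.03 in Merit40-/- HSCs, against 8.95, 9.11 and 9.23 in WT HSCs. The genotypes overlapped, and the spread within each genotype (SD 0.14 in both) exceeded the difference of 0.05 (SE 0.13). The 95% interval of the difference ran from -0.25 to 0.35, which as a fold is 0.839 to 1.28 times the WT level as read on the array.

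Ikzf2 encodes Helios, best known from regulatory T cells and also made in early progenitors. It read 8.41, 8.45 and 8.12 in Merit40-/- HSCs, against 8.13, 7.76 and 8.43 in WT HSCs. The WT arrays were spread from 7.76 (replicate 2) to 8.43 (replicate 3), and the genotypes overlapped. The difference was 0.22 (SE 0.19), with an interval of -0.21 to 0.64, and with single arrays left out it ran from 0.042 (without WT replicate 2) to 0.38 (without WT replicate 3).

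Ikzf3 encodes Aiolos, the family member of later B cell stages, plasma cells and other mature lymphocytes. It read 4.31, 4.42 and 4.30 in Merit40-/- HSCs, against 3.74, 3.96 and 3.68 in WT HSCs. All 3 Merit40-/- arrays lay above all 3 WT arrays, with a gap of 0.34 between the nearest arrays, and it was the only one of the 10 genes whose genotypes did not overlap. Over all genes, 4.84% lay wholly higher in Merit40-/- and 4.22% wholly lower, so 1 of 10 is near the background. The means were 4.34 ± 0.065 in Merit40-/- and 3.80 ± 0.15 in WT (SD, n = 3 each), a difference of 0.54 (SE 0.12), or 1.46-fold, with an interval of 0.26 to 0.83.

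The unadjusted limma p of Ikzf3 was 0.00224 and its adjusted p 0.999, and 35 of the 23185 genes had a p as small. By exact permutation its 2-sided p was 0.1, the lowest possible, which any gene without overlap gives with 3 arrays against 3. Both means lay below the low-signal mark of their genotype (4.50 in Merit40-/- and 4.58 in WT), where log2 values are compressed. Leaving out the muscle-rich array (Merit40-/- replicate 1) gave a difference of 0.562, and leaving out the array with high Ctsk and Acp5 (Merit40-/- replicate 3) gave 0.565. Plasma cell markers had list means of 4.87 to 5.04 in Merit40-/- and 4.75 to 5.10 in WT over 7 genes. B cell markers had list means of 4.43 to 5.25 in Merit40-/- and 4.53 to 4.86 in WT over 4 measured genes. The array ranges of the genotypes overlapped for both lists, and 1 of the 4 B cell markers, Cd79b, was above the low-signal mark in WT. Cd79b by itself had all Merit40-/- arrays above all WT arrays, as Ikzf3 did, while the genotypes overlapped for Cd79a, Igll1 and Ms4a1. T cell markers had list means of 3.36 to 3.93 in Merit40-/- and 3.48 to 3.61 in WT over 3 measured genes, also with overlap. NK cell markers had list means of 5.89 to 6.14 in Merit40-/- and 6.27 to 6.49 in WT over 3 genes, without overlap. Of these genes only Nkg7 had all Merit40-/- arrays below all WT arrays, while the genotypes overlapped for Ncr1 and Klrb1c. A wider list of 13 NK and innate lymphoid genes had a median difference of 0.08, with 7 above 0 and 6 below. The part of any of these cells in the Ikzf3 difference was not tested. In such sorted populations, more cells with a transcript and more transcript per cell cannot be told apart.

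**Figure D2:**
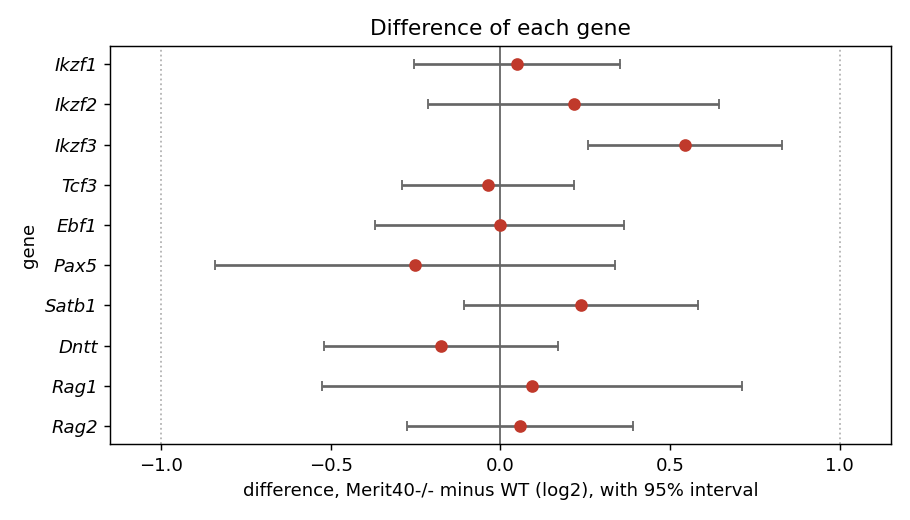
Difference of each gene, Merit40-/- minus WT (log2), as points with the 95% interval of limma, with dotted lines at a 2-fold change. The intervals of 9 genes include 0, that of Ikzf3 runs from 0.26 to 0.83, and all 10 lie within a 2-fold change in either direction.

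Tcf3 encodes the E2A proteins E12 and E47, basic helix-loop-helix factors that open lymphoid and above all B cell gene programmes. It read 8.43, 8.47 and 8.54 in Merit40-/- HSCs, against 8.56, 8.46 and 8.54 in WT HSCs. The whole range over the 6 arrays was 0.12, the smallest of the 10 genes. Its difference of -0.04 (SE 0.11) had an interval of -0.29 to 0.22, which is narrower than that of the median gene (0.252 on each side, against 0.342).

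Ebf1, the early B cell factor that specifies the B lineage, read 3.70, 3.24 and 3.43 in Merit40-/- HSCs, against 3.67, 3.33 and 3.38 in WT HSCs. These values lie deep in the low-signal range, 1.12 below its mark in WT, and the genotype means differed by less than 0.01. The interval was -0.37 to 0.37.

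Pax5, which commits B cell precursors to their lineage, read 3.86, 4.55 and 4.80 in Merit40-/- HSCs, against 4.70, 4.94 and 4.32 in WT HSCs. It had the widest range of the 10 genes over the 6 arrays, 1.07, and its lowest value was on the muscle-rich array, Merit40-/- replicate 1. The WT mean of 4.66 exceeded the low-signal mark by 0.08, and WT replicate 3 lay below it. The difference was -0.25 (SE 0.26). It was 0.019 without Merit40-/- replicate 1 and -0.45 to -0.11 with any other array left out. By the root mean square distance between array values after each gene's mean was removed, the 3 genes most like Pax5 over the 6 arrays were Ska2 (0.098 log2 units), Aunip (0.10) and Tyms (0.11). How near the closest profiles of other genes lie was not examined, and shared regulation with Pax5 was not tested.

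Satb1 encodes a chromatin organiser needed for T cell development and active in lymphoid-primed progenitors. It read 5.84, 5.79 and 5.41 in Merit40-/- HSCs, against 5.39, 5.58 and 5.37 in WT HSCs. Of the Merit40-/- arrays 2 lay above all WT arrays, and the third lay between them. The difference was 0.24 (SE 0.15, unadjusted p = 0.153 in limma), with an interval of -0.11 to 0.58, and with single arrays left out it ran from 0.16 (without Merit40-/- replicate 1, the muscle-rich array) to 0.37 (without Merit40-/- replicate 3).

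Dntt encodes terminal deoxynucleotidyl transferase, an early mark of lymphoid priming. It read 3.81, 3.97 and 3.60 in Merit40-/- HSCs, against 4.18, 3.92 and 3.81 in WT HSCs. The arrays overlapped, all 6 lay below the low-signal mark, and the difference was -0.18 (SE 0.15) with an interval of -0.52 to 0.17. With single arrays left out it ran from -0.26 (without Merit40-/- replicate 2) to -0.072 (without WT replicate 1), and it was -0.079 without Merit40-/- replicate 3.

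Rag1 and Rag2, neighbouring genes on chromosome 2, encode both parts of the V(D)J recombinase. Rag1 read 3.69, 4.36 and 4.59 in Merit40-/- HSCs, against 4.56, 3.97 and 3.83 in WT HSCs. The highest Merit40-/- array and the highest WT array were within 0.05 of each other. Merit40-/- replicate 1 (3.69) lay low and WT replicate 1 (4.56) lay high within its genotype. The SD within the genotypes (0.47 in Merit40-/- and 0.39 in WT) exceeded the difference of 0.09 (SE 0.27). Rag2 read 3.32, 3.67 and 3.65 in Merit40-/- HSCs, against 3.32, 3.55 and 3.59 in WT HSCs. Its difference was 0.06 (SE 0.14), with an interval of -0.27 to 0.39, and 11 of the 12 values of the pair lay below 4.58.

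**Figure D3:**
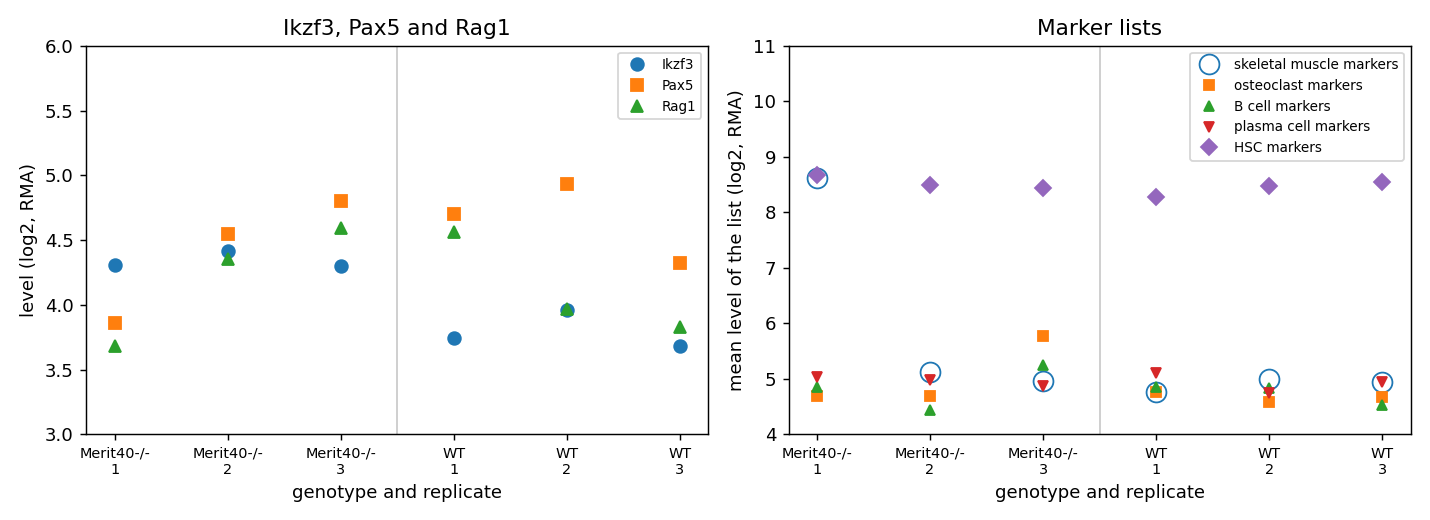
Left, level of Ikzf3, Pax5 and Rag1 (log2, RMA) by array, and right, mean level of marker lists, with Merit40-/- arrays before WT arrays. Ikzf3 is higher on all 3 Merit40-/- arrays, Pax5 and Rag1 vary within both genotypes, muscle markers (open circles) are high on Merit40-/- replicate 1 (8.61), and osteoclast markers on Merit40-/- replicate 3 (5.78).

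Promoter sequence was set beside the levels for the members that the RefSeq promoter table (GRCm38.p6) holds, 8 of the 10 genes with 14 annotated starts. Shown are the 250 bases before the start of 4 genes with 1 annotated start, because Tcf3 read far above the low-signal mark and Dntt, Rag1 and Rag2 below it. Capitals mark GGGAA, the core of the Ikaros recognition motif, on either strand (TTCCC on the opposite one). The windows are chr10:80433636-80433885 (minus strand) for Tcf3, chr19:41029025-41029274 (plus strand) for Dntt, chr2:101649533-101649782 (minus strand) for Rag1 and chr2:101624462-101624711 (plus strand) for Rag2.
Tcf3: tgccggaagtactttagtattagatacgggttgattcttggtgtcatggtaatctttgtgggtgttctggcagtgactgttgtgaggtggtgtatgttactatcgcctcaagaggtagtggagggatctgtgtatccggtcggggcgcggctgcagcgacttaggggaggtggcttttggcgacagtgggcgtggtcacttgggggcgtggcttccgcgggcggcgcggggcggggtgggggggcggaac
Dntt: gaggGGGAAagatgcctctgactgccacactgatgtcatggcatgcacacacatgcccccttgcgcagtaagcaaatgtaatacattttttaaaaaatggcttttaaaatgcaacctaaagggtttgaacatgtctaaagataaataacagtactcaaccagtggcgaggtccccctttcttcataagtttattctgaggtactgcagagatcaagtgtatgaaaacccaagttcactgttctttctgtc
Rag1: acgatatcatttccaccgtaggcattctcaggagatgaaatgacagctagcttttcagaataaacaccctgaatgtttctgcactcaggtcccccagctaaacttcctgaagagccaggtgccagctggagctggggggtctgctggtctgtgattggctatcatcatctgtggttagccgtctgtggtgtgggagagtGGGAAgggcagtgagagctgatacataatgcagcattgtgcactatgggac
Rag2: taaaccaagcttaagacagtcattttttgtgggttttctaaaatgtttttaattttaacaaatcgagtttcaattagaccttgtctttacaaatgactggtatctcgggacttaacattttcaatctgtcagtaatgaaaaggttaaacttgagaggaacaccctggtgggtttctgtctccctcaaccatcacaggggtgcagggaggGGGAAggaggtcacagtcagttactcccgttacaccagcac

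The Tcf3 window has 59.6% G and C and 18 CpG dinucleotides, against 41.6% and 2 for Dntt, 50.8% and 3 for Rag1, and 41.2% and 3 for Rag2. The median of all 32851 promoter windows is 52.4% and 6. The window at the first listed start of Ikzf1, which also read high, has 82.0% and 44. That at the second has 47.6% and 1. Pax5, with a level at the low-signal mark, has 58.8% and 19, and the 2 windows of Ebf1, which read deep in the low-signal range, have 40.0% and 9 and 52.0% and 14. The windows of Satb1, which read above the low-signal mark, have 50.8% to 80.8% G and C and 3 to 41 CpG dinucleotides. No relation between base content and level was tested.

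GGGAA occurs once in the Dntt window, 246 bases before the start, once in Rag1 at 51 bases and once in Rag2 at 41 bases, and it has no match in the Tcf3 window. Over the 14 windows 11 hold it on either strand, and 56.2% of all promoter windows do. CANNTG, the E-box bound by E proteins such as E2A, reads the same on both strands and has 3 matches in Dntt, 3 in Rag1, 1 in Rag2 and 1 in Tcf3. It is in 8 of the 14 windows and in 66.2% of all windows, and matches of both motifs can share at most 1 base. The 14 windows include 5 of Satb1 and 2 each of Ikzf1 and Ebf1, so they are not separate genes. A match describes letters only, and no binding was measured here.

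Genes that work with these factors were read from 8 lists of 108 genes, 99 of them measured. In limma 0 of the 99 passed the threshold in either direction. At an unadjusted p under 0.05 there were 4 higher and 4 lower, against 2.26% of all genes higher and 1.96% lower. All Merit40-/- arrays lay above all WT arrays for 8 genes and below them for 6, and 9.05% of all genes were separated in one of these ways. The median difference over the 99 was -0.01.

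Ikaros proteins recruit the NuRD complex, which couples chromatin remodelling to histone deacetylation. Of the 15 Ikaros relatives and NuRD genes, 9 were above 0 and 6 below, with a median of 0.02, and all 15 lay above the low-signal mark in WT. The remodeller Chd4 stood at 10.05 ± 0.098 in Merit40-/- and 10.01 ± 0.060 in WT (SD, n = 3 each). Mbd3, a NuRD subunit, had the highest difference of the list and read 7.41, 7.39 and 7.49 in Merit40-/- HSCs, against 7.18, 7.14 and 6.78 in WT HSCs. Its genotypes did not overlap, with a difference of 0.40 (SE 0.14, unadjusted p = 0.0206 and adjusted p = 0.999 in limma). The remodeller Chd3 had the lowest, -0.13 (SE 0.14). The remaining family genes Ikzf4 (Eos) and Ikzf5 (Pegasus) differed by 0.07 (SE 0.14) and 0.31 (SE 0.14).

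E proteins such as E2A act as dimers, and Id proteins hold them off DNA. In the list of 10 E protein partners and Id inhibitors, 4 were above 0 and 6 below, with a median of -0.02. The E protein genes Tcf4 and Tcf12 differed by 0.03 (SE 0.14) and -0.01 (SE 0.16). Id1 had the lowest difference, -0.35 (SE 0.18), and read 4.27, 4.99 and 4.45 in Merit40-/- HSCs, against 4.94, 4.93 and 4.87 in WT HSCs. The Merit40-/- arrays were split around the tight WT values. Lyl1, a basic helix-loop-helix partner of E proteins, had the highest, 0.20 (SE 0.11).

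Receptors of lymphoid-primed progenitors had a median difference of -0.02 over 9 measured genes, 4 above 0 and 5 below. Flt3, whose signal drives the lymphoid-primed stage, stood at 6.87 ± 0.51 in Merit40-/- and 6.72 ± 0.12 in WT (SD, n = 3 each). Il7r, the interleukin receptor gene of common lymphoid progenitors, stood at 2.89 ± 0.26 in Merit40-/- and 2.93 ± 0.20 in WT (SD, n = 3 each), both far below the low-signal mark. The chemokine receptor Ccr7 had the highest difference, 0.19 (SE 0.19), and the surface protein Ly6d, which marks B cell-biased progenitors, the lowest, -0.18 (SE 0.19).

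The 13 other lymphoid transcription factors had a median of -0.03, with 5 above 0 and 8 below. Spi1 (PU.1), which works in myeloid and lymphoid progenitors, stood at 9.57 ± 0.11 in Merit40-/- and 9.52 ± 0.33 in WT (SD, n = 3 each). Mef2c and Bcl11a, both needed for early lymphoid development, differed by -0.05 (SE 0.12) and 0.11 (SE 0.14). Irf4, of later B cell stages, had the highest difference, 0.23 (SE 0.17), and Lef1, of T and B precursors, the lowest, -0.19 (SE 0.17).

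The 15 measured pre-B and B cell genes, which include receptor chains, signalling proteins and other surface proteins, had a median of -0.09. Of these, 7 were above 0 and 8 below, and 6 of the 15 lay above the low-signal mark in WT. The IgE receptor gene Fcer2a had the highest difference, 0.46 (SE 0.18, unadjusted p = 0.0331 in limma), at 4.26 ± 0.35 in Merit40-/- and 3.79 ± 0.094 in WT (SD, n = 3 each), both under the mark. With single arrays left out its difference ran from 0.28 (without Merit40-/- replicate 1, the muscle-rich array) to 0.62 (without Merit40-/- replicate 3). The B cell kinase gene Blk had the lowest, -0.42 (SE 0.21). The 14 T cell commitment genes had a median of -0.02, with 6 above 0 and 8 below, and the 13 NK and innate lymphoid genes a median of 0.08, with 7 above 0 and 6 below.

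The lowest members of the T and NK cell lists had means above the mark in both genotypes. Thy1, a surface protein of T cells that some progenitors carry, read 5.72, 5.68 and 4.66 in Merit40-/- HSCs, against 6.28, 5.77 and 6.05 in WT HSCs. Nkg7, a granule protein of cytotoxic cells, read 8.33, 8.67 and 7.43 in Merit40-/- HSCs, against 8.97, 8.80 and 8.73 in WT HSCs. Both had all Merit40-/- arrays below all WT arrays, and in both the lowest value was Merit40-/- replicate 3, the array with high Ctsk and Acp5. The differences were -0.68 (SE 0.28) for Thy1 and -0.69 (SE 0.28) for Nkg7, each with adjusted p = 0.999 in limma. Leaving out that array gave -0.34 for both. The highest members were the T cell receptor subunit gene Cd3g at 0.21 (SE 0.14) and the NK receptor gene Klrd1 at 0.29 (SE 0.29), both under the mark. Klrd1 was 0.013 without Merit40-/- replicate 2 and 0.53 without WT replicate 2.

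The breaks made by the recombinase are sealed by non-homologous end joining. The 10 measured cofactor and end-joining genes had a median of -0.10, with 4 above 0 and 6 below. The related polymerases Polm and Poll stood at its ends. Polm read 4.48, 4.34 and 4.62 in Merit40-/- HSCs, against 4.26, 4.13 and 4.09 in WT HSCs. The difference was 0.32 (SE 0.13, unadjusted p = 0.0329 and adjusted p = 0.999 in limma) with no overlap, and both means lay under the low-signal mark of their genotype. Poll differed by -0.26 (SE 0.34), with Merit40-/- arrays scattered at 6.82, 5.24 and 5.79, against 6.18, 6.14 and 6.33 in WT, and the difference was 0.090 without Merit40-/- replicate 2. The Ku subunit genes Xrcc5 and Xrcc6 differed by 0.10 (SE 0.12) and -0.17 (SE 0.15).

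**Figure D4:**
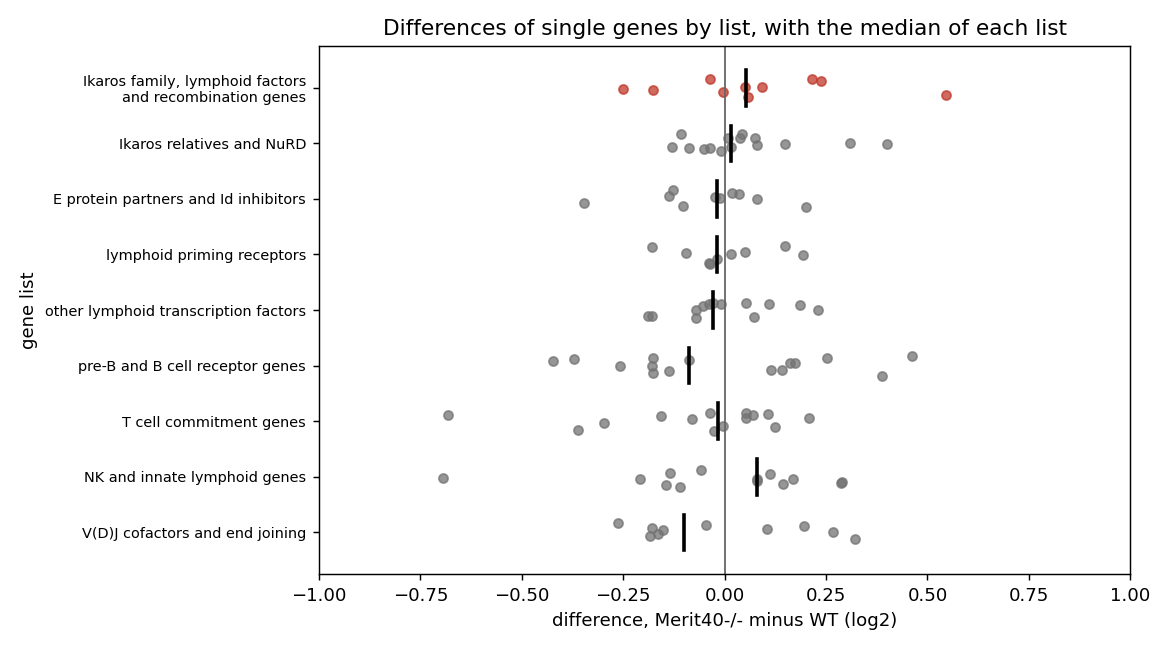
Difference of each gene (points, Merit40-/- minus WT, log2) by list, with a black bar at the list's median and the 10 lymphoid genes of the top row in red. The medians lie between -0.10 and 0.08, and the points farthest from 0 are Nkg7 (-0.69), Thy1 (-0.68) and Ikzf3 (0.54).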

How the data were processed

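The authors deposited RMA values on the log2 scale. The submitters' processing notes name RMA and affy, without versions, chip definition or genome build. RMA subtracts background, makes the arrays' distributions alike and combines the probes of a set. Scanner intensities were not analysed here. Of 25206 probe sets, 23185 had exactly 1 symbol, 0 had several and 2021 were unnamed here, and 0 values were missing.

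A linear model with a genotype term and no other was fitted to all 23185 genes (limma 3.58.1 under R 4.3.3, moderated by eBayes). The 2-sided p-values were adjusted over all of them by Benjamini and Hochberg, with a threshold of 0.05. The procedure was tested on simulated data. Arrays with the same replicate number did not deviate together (Pearson's r across genes of -0.05, -0.0027 and 0.04 for numbers 1 to 3), so the numbers were not used to pair arrays. With 3 arrays per genotype, precision is limited by their number.

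The members and gene lists were chosen with earlier results of these data known. Named are Babam1, the 10 members, the highest and lowest member of each list, any list gene past the threshold, and the 3 genes nearest to the most variable member. Further list genes were chosen after their values were seen. Of 108 list genes, 9 were not analysed here, and of 10 HSC markers 2. Promoters are from RefSeq.

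Alternatives were a replicate block, a variance trend, weights per array, 2 other scalings, filters on the dimmest 30% or 50% of genes, all probe sets, each array left out, and an unmoderated test per gene.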

Additional observations from a re-analysis of the deposited data

How the results depend on the processing

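Under the 15 alternatives 0 of the members and list genes that remained passed the threshold, and Babam1 was the 1 gene called under 14 of them. The unmoderated test called 0 genes (990 at an unadjusted p under 0.05), with Babam1 at -3.94 and an adjusted p of 0.168, while its adjusted p in limma ranged from 3.08e-05 to 0.00374 over the other alternatives. Without single arrays the Babam1 difference ran from -4.06 to -3.85. With a replicate block, Babam1 differed by -3.94 (adjusted p = 0.00374 in limma), Ikzf3 by 0.54 (unadjusted p = 0.00452), and the block changed no call. Ikzf3 was 0.49 to 0.63 over single arrays left out, with adjusted p of 0.966 to 1.00 over its 14 alternatives, and it was removed with the dimmest 50% of genes. The filters left 8 of the 10 genes (without the dimmest 30%) and 4 of them (without the dimmest 50%), with 83 and 60 of the 99 list genes.

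Of 142 recomputed differences of the 10 genes, 131 kept their sign. Of the other 11, 10 turned with 1 array left out, where Ikzf1 ran from -0.027 to 0.12, Ebf1 from -0.13 to 0.10, Pax5 from -0.45 to 0.019, Rag1 from -0.10 to 0.36 and Rag2 from -0.026 to 0.17, and 1 with another scaling, where Ebf1 was 0.0087 with arrays centred on their median. Among 16 list genes, Ccr7 ran from -0.027 to 0.31 and Poll from -0.70 to 0.090, and without a change of sign Chd3 ran from -0.19 to -0.044, Id1 from -0.56 to -0.20, Ly6d from -0.30 to -0.0061, Irf4 from 0.095 to 0.34, Lef1 from -0.34 to -0.095, Blk from -0.68 to -0.29 and Cd3g from 0.099 to 0.28. The cause was not tested. The number of genes above the low-signal mark in WT was 4 without WT replicate 2 and 5 otherwise.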

Other observations

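Of the 8 list genes with an unadjusted p under 0.05 in limma, 3 have not been described with their values, and they were named after these were seen. Cd79b, a signalling chain of the B cell receptor, read 8.92, 8.34 and 8.71 in Merit40-/- HSCs, against 8.23, 8.28 and 8.31 in WT HSCs (difference 0.39, SE 0.16). Btk, the kinase downstream of that receptor, read 8.19, 7.83 and 8.23 in Merit40-/- HSCs, against 8.47, 8.43 and 8.46 in WT HSCs (difference -0.37, SE 0.14). Both lay far above the low-signal mark, the genotypes did not overlap for either, and their differences had opposite signs. Cd28, the costimulatory receptor of T cells, stood at 3.85 ± 0.096 in Merit40-/- and 4.22 ± 0.069 in WT (SD, n = 3 each), both under the mark. The adjusted p of each was 0.999 in limma.

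Values of the 15 measured pre-B and B cell genes on Merit40-/- replicate 3, the array with high Ctsk and Acp5, went both ways. Cd79a read 3.51, 2.87 and 4.59 in Merit40-/- HSCs, against 3.80, 3.77 and 3.05 in WT HSCs. Only Cd79a and Ms4a1 (4.34) were highest of all 6 arrays there, and only Blk (3.79) and Cd72 (6.28) were lowest. Among the Merit40-/- arrays alone, Blnk, Btk and Cr2 were also highest on replicate 3, and Fcer2a and Syk were also lowest. Cd79b was highest on Merit40-/- replicate 1. Of the 10 lymphoid genes, Rag1 (4.59) was highest on Merit40-/- replicate 3, and Pax5 (4.80) and Tcf3 (8.54) were highest there among the Merit40-/- arrays. Rag2 was nearly level on Merit40-/- replicates 2 (3.67) and 3 (3.65), and Ebf1 (3.43 on replicate 3) was highest on Merit40-/- replicate 1. Ikzf1, Ikzf2, Ikzf3, Satb1 and Dntt were lowest on replicate 3 among the Merit40-/- arrays. The part of other cells in these values was not tested.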
